A study of Mus musculus with 18 samples.

Results

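The transcriptome of mouse embryonic cortex lacking Dmrt3 alone was compared with that of wild-type (WT) cortex, with attention to what changed little or not measurably. All libraries were made from dissected cortical tissue of C57BL/6 embryos at E12.5 (days after conception), and the members compared here were taken by the genotype in their titles, 5 of Dmrt3 knockout (KO; Dmrt3-/-) and 4 of WT, which makes 9 of the 18 libraries in the series. The other libraries were 4 of Dmrt5 KO (Dmrt5-/-) and 5 of the double KO (Dmrt3-/-;Dmrt5-/-), and they were used for a shared estimate of the spread and where the response to loss of Dmrt3 was compared with or without Dmrt5. Dmrt5 is an older name of the gene Dmrta2, and its transcript appears under the latter symbol. The labels name no shared allele, Cre driver or treatment, and do not say whether libraries came from separate embryos or from pooled ones, so p-values measure only the spread between these libraries.

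Dmrt3 and Dmrta2 belong to the doublesex and mab-3 related family of transcription factors, which contact DNA through a zinc-containing DM domain. Both are made in progenitors of the dorsomedial telencephalon, in a gradient that is highest next to the cortical hem, the midline source of Wnt and Bmp signals from which the hippocampal field is patterned. Family members recognise closely similar sequences, with the core ACANTGT that reads the same on both strands.

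The promoter windows of the deleted gene and of its close relative that stayed near WT level are shown because both factors act in the same cells. They are RefSeq windows of build GRCm38.p6, from 250 bases before to 50 bases after a transcript start, with the core in capitals. The transcript start used for Dmrt3 lies after the annotated gene start at 25610301, so most of that window is inside the annotated gene. The Dmrta2 window lies mostly before its annotated start at 109978053.
Dmrt3, chr19:25610287-25610586, plus strand: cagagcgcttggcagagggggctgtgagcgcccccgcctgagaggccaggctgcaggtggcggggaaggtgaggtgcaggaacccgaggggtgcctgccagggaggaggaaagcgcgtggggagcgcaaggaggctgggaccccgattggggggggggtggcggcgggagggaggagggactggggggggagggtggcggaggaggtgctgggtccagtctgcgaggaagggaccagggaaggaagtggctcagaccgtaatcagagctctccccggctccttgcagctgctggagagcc
Dmrta2, chr4:109977775-109978074, plus strand: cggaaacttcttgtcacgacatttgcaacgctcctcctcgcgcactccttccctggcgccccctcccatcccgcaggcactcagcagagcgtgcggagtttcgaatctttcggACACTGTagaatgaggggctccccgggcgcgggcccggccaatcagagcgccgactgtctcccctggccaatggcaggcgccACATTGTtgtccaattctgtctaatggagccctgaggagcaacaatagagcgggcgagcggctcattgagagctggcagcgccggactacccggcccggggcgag
The Dmrta2 window held 2 matches to the core and the Dmrt3 window, which lies mostly inside the gene, 0. Over all 32851 RefSeq windows of the same length, 7.54% held at least 1 match and 0.377% at least 2. A match is a string of letters and not a bound site.

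The libraries compared held between 19602718 and 32873452 counts, and normalised read counts are given as CPM, counts relative to the scaled library total. The tissue label was checked against markers of the pallium, the dorsal telencephalon that forms the cortex: over the 9 libraries Lhx2 lay between 513 and 800 CPM, Emx2 between 139 and 249 and Tbr1 between 175 and 300. Transcripts of the subpallium were present too, with Dlx2 between 138 and 241 CPM. The first principal component held 50.3% of the variance between these 9 libraries and did not separate the genotypes: WT scored -47.74, 51.82, 2.682 and -78.22, and Dmrt3 KO between -18.13 and 37.61. WT replicates 2 and 4 were thus the extremes. They were also the extremes of the relation between counts and gene length, the slope of log2 deviation on log transcript length, at -0.196 and 0.243 against -0.118 to 0.0508 in Dmrt3 KO. WT replicate 2 held both Xist (452 CPM) and Y-linked transcripts (13.3 CPM), whereas each other library of the comparison held one of them at high and the other at low level. Dmrt3 KO replicate 2 stood apart by a few diencephalic and ventral transcripts, described with those lists.

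Dmrt3 was close to absent from the KO libraries, and for nearly all other genes no change was called. Dmrt3 (ENSMUSG00000042372, mm10 chromosome 19, 25610301 to 25623921, plus strand) had 1664, 1158, 1370 and 1796 raw counts in the WT libraries and 6, 9, 6, 10 and 7 after its loss, or -7.51 on the log2 scale (95% interval -8.36 to -6.65, adjusted p = 1.13e-08, edgeR quasi-likelihood test with Benjamini-Hochberg adjustment over 16236 genes). The groups did not overlap. Of the 16236 genes tested, 1 rose (0.00616%) and 1 fell (0.00616%), the second being Dmrt3 itself. At an unadjusted p under 0.05 there were 252 genes with higher (1.55%) and 911 with lower values (5.61%). These counts were 1289 and 1831 without WT replicate 2, and 81 and 425 without WT replicate 4. DESeq2 called 1 gene higher (0.00617%) and 53 lower (0.327%), and their make-up is given with the gene classes. Without WT replicate 2 the edgeR count of lower genes was 5, and without WT replicate 4 it was 3.

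A missed threshold does not show that a gene stayed the same, so the interval of each fold change was read as well. For 11962 of the 16236 genes (73.7%) the 95% interval lay within a 2-fold change in either direction, and for 6121 (37.7%) within 1.5-fold. The precision followed the expression level. Among genes with a mean log2 CPM under 0 the interval lay within 2-fold for 22.4%, between 0 and 2 for 54.7%, between 4 and 6 for 89.1% and over 8 for 89.9%. Over all genes the median log2 fold change was -0.0036, the 5th percentile was -0.777 and the 95th was 0.429, so that values below WT reached further than values above it. In 113 genes (0.696%) all 5 Dmrt3 KO libraries were above all 4 WT libraries and in 271 (1.67%) all were below. Without WT replicate 2 these counts were 415 and 1092. A lack of overlap is easier with fewer libraries, and both counts also rose with each other library left out. They were 253 and 463 without WT replicate 3, and 123 and 399 without WT replicate 4.

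**Figure D1:**
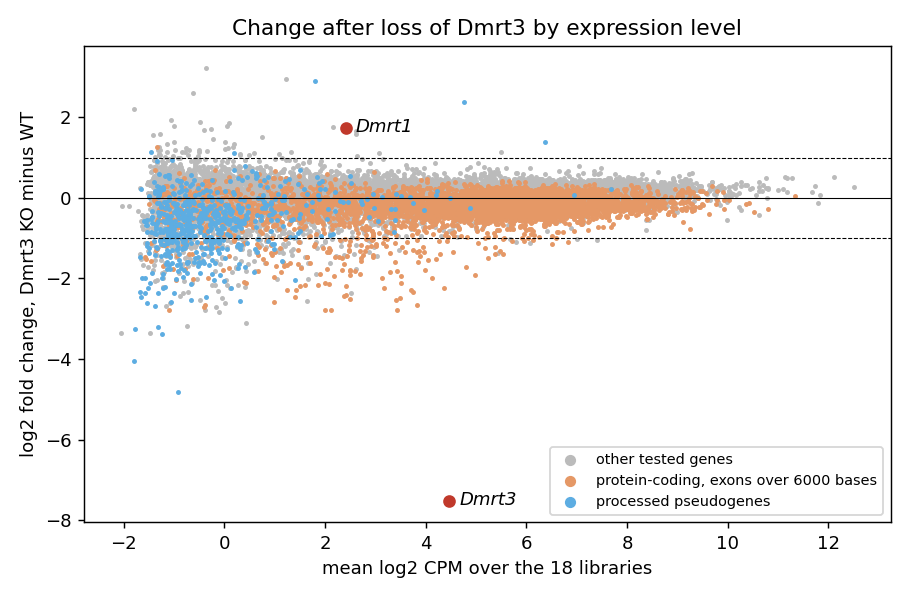
Log2 fold change of Dmrt3 KO minus WT for each tested gene (y axis) against its mean log2 CPM over the 18 libraries (x axis); dashed lines mark a 2-fold change. Dmrt3 (-7.51) and Dmrt1 (1.73) are the genes called by edgeR, and most points lie between the dashed lines, with processed pseudogenes and protein-coding genes of long exons extending below them.

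The gene that rose was Dmrt1, a relative best known as the testis factor that keeps male cell fate, and it lies directly before Dmrt3 on the same strand. Dmrt1 (ENSMUSG00000024837, mm10 chromosome 19, 25505618 to 25604329, plus strand) starts 104.7 kb before Dmrt3. It stood at 2.59, 4.22, 3.94 and 2.55 CPM in WT and at 11.3, 12.46, 11.7, 10.2 and 9.40 CPM in Dmrt3 KO, so the groups were well apart. The difference was a 3.33-fold rise (log2 1.73, 95% interval 1.32 to 2.14, adjusted p = 0.000553 with edgeR). It was called in all 19 settings tried, with log2 values from 1.62 to 1.87. The level stayed low: 1.28 RPKM (CPM per kilobase of exon) in WT and 4.24 in Dmrt3 KO, against 23.3 RPKM for Dmrt3 in WT. The counts are sums over the gene, so they do not tell where along Dmrt1 the reads lie.

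The other neighbours of Dmrt3 did not pass the test. Kank1, an ankyrin-repeat adaptor of the cell cortex 373.3 kb before Dmrt3, had a log2 fold change of -0.37 (interval -0.87 to 0.13), and the pseudogene Gm8825, 186.5 kb after it, -0.70 (-1.39 to -0.0047). Dmrt2, a further family member that starts 62.1 kb after Dmrt3, had 36 raw counts in total over WT and 21 over Dmrt3 KO and was below the filter on low counts. Of the 52 tested genes that start within 5 Mb, Dmrt3 left out, edgeR called 1 higher, Dmrt1, and 0 lower, and DESeq2 1 higher and 1 lower. Their median log2 fold change was -0.129, and 34 (65.4%) had an interval within 2-fold.

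Dmrta2, the family member with the highest level in this tissue, had no called change. It stood at 159, 220, 216 and 178 CPM in WT and at 295, 155, 247, 205 and 193 CPM in Dmrt3 KO, with overlapping groups (log2 0.18, interval -0.63 to 0.99, adjusted p = 0.837 with edgeR). The interval lies just within 2-fold. Dmrta1, which carries the same kind of domain and is also made in cortical progenitors, stood at 33.6, 55.0, 41.6 and 48.7 CPM in WT and at 38.7, 46.6, 59.5, 56.2 and 59.5 CPM in Dmrt3 KO (log2 0.22, interval -0.18 to 0.63). Of the 7 family members tested, 5 had values above WT, 1 of them called, and 2 below. The remaining members tested had wide intervals: Dmrtb1 0.71 (-0.14 to 1.56), Dmrtc1a 0.57 (-0.20 to 1.34) and Dmrtc2 -0.35 (-1.36 to 0.67).

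**Figure D2:**
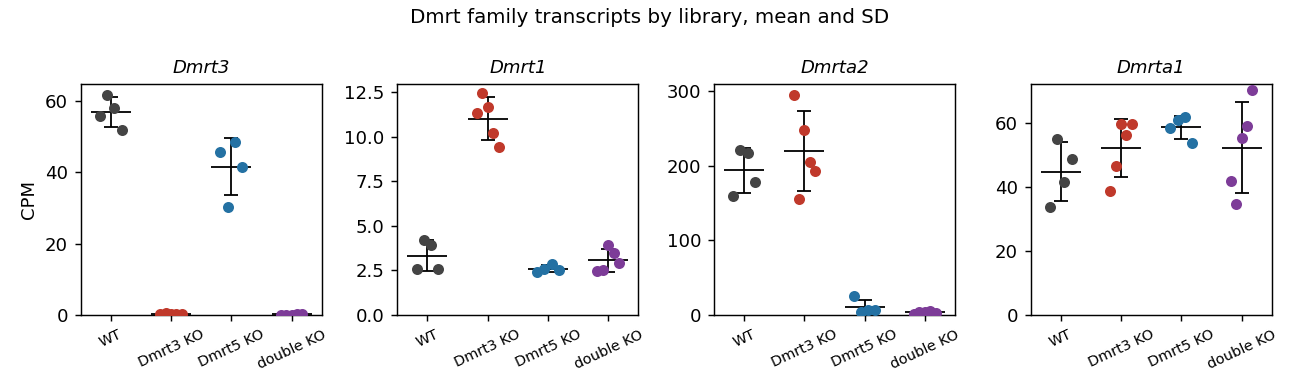
CPM (y axis, linear) of Dmrt3, Dmrt1, Dmrta2 and Dmrta1 in each library by genotype (x axis); points are libraries, and bars give the mean and SD. Dmrt1 lies between 9.40 and 12.46 CPM in the 5 Dmrt3 KO libraries, above all 4 WT libraries, while Dmrta2 and Dmrta1 overlap with WT.

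No regulator of telencephalic patterning was called by edgeR or DESeq2. Among all tested genes edgeR called 1 higher and 1 lower, and DESeq2 1 and 53. A count of 0 called genes in this or the following lists therefore says little about their members. Of the 16 tested, 1 had an unadjusted p under 0.05 with a higher and 2 with a lower value, 8 had values above and 8 below WT, and the median log2 fold change was 0.0129, beside -0.0036 over all genes. It ran from -0.0561 to 0.0486 over the settings. For 13 of the 16 (81.2%) the interval lay within 2-fold, a share near the 73.7% of all genes, and for 8 within 1.5-fold. Emx1, a homeobox gene of the pallium, stood at 140, 180, 179 and 113 CPM in WT and at 236, 164, 149, 143 and 151 CPM in Dmrt3 KO. Its highest library was Dmrt3 KO replicate 1 and the others overlapped with WT (log2 0.14, interval -0.37 to 0.65, adjusted p = 0.791). Its paralogue Emx2 had a log2 value of -0.20 (-0.55 to 0.16). Pax6, which marks lateral pallial progenitors, stood at 194, 157, 160 and 194 CPM in WT and at 196, 192, 211, 245 and 190 CPM in Dmrt3 KO (log2 0.23, -0.09 to 0.55).

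The next 7 members had intervals that included 0 and lay within 2-fold. Six3, a factor of the rostral and ventral forebrain, had 0.14 (-0.12 to 0.39), and Otx1, a dorsal forebrain factor, 0.06 (-0.26 to 0.37). The area factors Nr2f1, Nr2f2 and Sp8 had -0.13 (-0.60 to 0.35), 0.22 (-0.35 to 0.78) and -0.40 (-0.83 to 0.03). Gsx2, which specifies the lateral ganglionic eminence, had 0.10 (-0.35 to 0.55), and Otx2 0.14 (-0.29 to 0.57). The 3 genes whose intervals were not within 2-fold were Dbx1, a marker of the ventral pallium, at 0.61 (0.14 to 1.07), and the Wnt ligands Wnt8b at -0.55 (-1.19 to 0.08) and Wnt3a at -0.76 (-1.72 to 0.19).

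Weak differences in the dorsomedial genes Lhx2, Gli3 and Wnt3a were seen as a lack of overlap without a call, in 3 of the 16 patterning regulators. Lhx2 (ENSMUSG00000000247, chromosome 2, 38339281 to 38369733), a LIM homeobox selector of cortical against hem fate, stood at 800, 702, 795 and 722 CPM in WT and at 659, 513, 618, 628 and 588 CPM in Dmrt3 KO. All 5 KO libraries were below all 4 WT libraries, as for 1.67% of all genes, and the log2 difference was -0.33 (interval -0.57 to -0.09, adjusted p = 0.558 with edgeR). Gli3, the zinc-finger effector and repressor of Hedgehog signalling, stood at 177, 181, 181 and 256 CPM in WT and at 114, 129, 159, 162 and 153 CPM in Dmrt3 KO. These groups did not overlap either, and WT replicate 4 stood far above the other WT libraries (log2 -0.48, interval -0.87 to -0.08, adjusted p = 0.65). Wnt3a, the hem ligand needed for hippocampal growth, stood at 12.53, 16.2, 14.4 and 11.6 CPM in WT and at 7.80, 6.67, 9.21, 8.68 and 7.93 CPM in Dmrt3 KO, again with no overlap and adjusted p = 0.65.

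**Figure D3:**
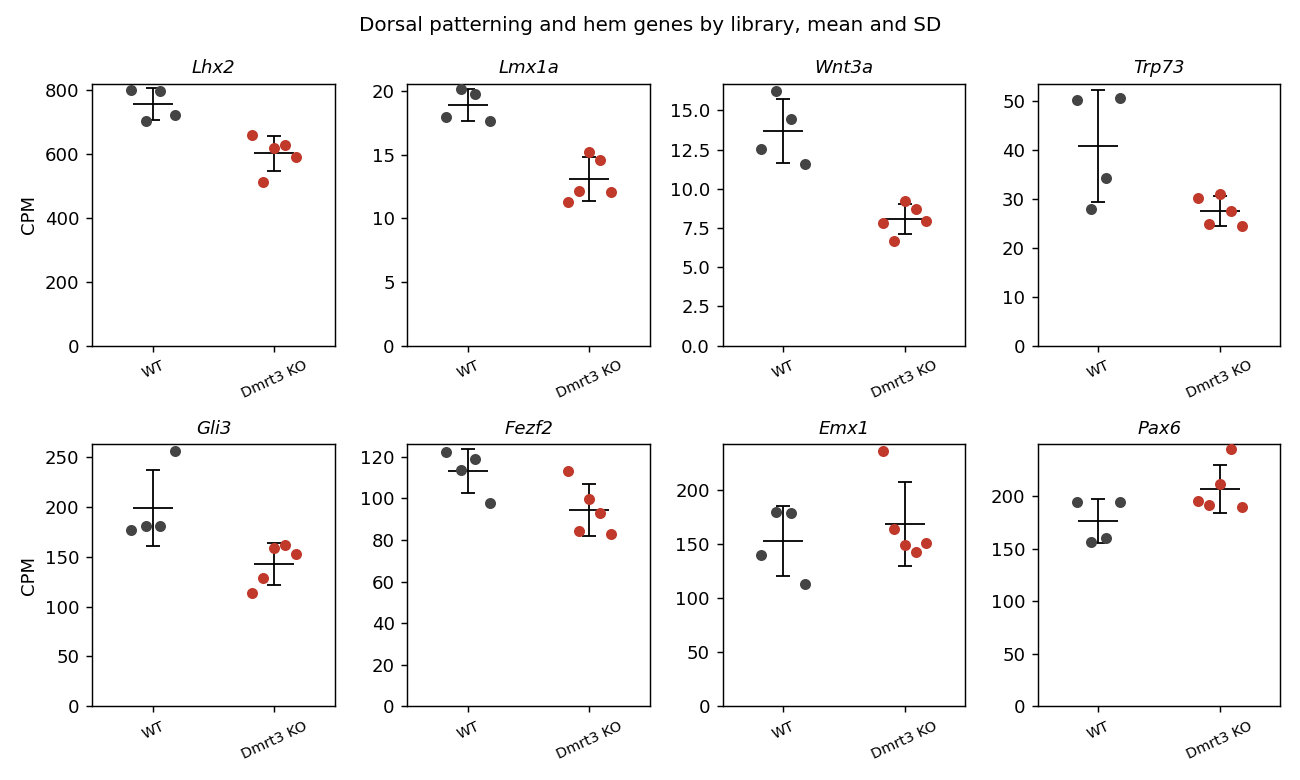
CPM (y axes, linear from 0) of 8 uncalled dorsal genes in the 4 WT and 5 Dmrt3 KO libraries (x axis); points are libraries, and bars give the mean and SD. Lhx2, Lmx1a, Wnt3a and Gli3 do not overlap between the genotypes, whereas Trp73, Fezf2, Emx1 and Pax6 do.

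Genes of the cortical hem lay mostly below WT, with 0 of 17 tested members called. Values were below WT for 12 of the 17 and above for 5, 3 with an unadjusted p under 0.05, all lower, and the median log2 fold change was -0.228. Over the settings tried the median ran from -0.537, with sex as a covariate, to -0.165, and it was -0.491 without Dmrt3 KO replicate 5. The interval lay within 2-fold for 7 members (41.2%), against 73.7% of all genes. Lmx1a, a LIM homeobox gene that defines the hem and choroid plexus, stood at 17.97, 20.2, 19.8 and 17.7 CPM in WT and at 11.3, 12.2, 15.3, 14.6 and 12.1 CPM in Dmrt3 KO. Every KO library was below every WT library, and the log2 difference was -0.53 (interval -0.998 to -0.06, adjusted p = 0.65). Wnt2b had 10.2, 1.81, 4.49 and 13.2 CPM in WT and 2.37, 1.72, 2.9, 3.67 and 2.89 CPM in Dmrt3 KO. Its log2 value of -1.46 (-2.66 to -0.26) rests on WT replicates 1 and 4, while WT replicate 2 was within the KO range. Wnt5a had -0.66 (-1.20 to -0.12), and Wnt7b, which is made in the cortex outside the hem, 0.18 (-0.22 to 0.59).

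Among the hem genes that answer to Bmp signals, Msx1 varied strongly between libraries. Msx1, a homeobox target of Bmp, stood at 30.4, 71.5, 33.4 and 38.3 CPM in WT and at 29.5, 20.9, 41.4, 31.5 and 105 CPM in Dmrt3 KO. The high value was that of Dmrt3 KO replicate 5, which also held the highest summed level of the 12 meningeal mesenchyme markers, 2980 CPM against 630 to 1140 CPM in the other 4 KO libraries and 868 to 2630 CPM in WT. The part of that tissue in these values was not tested.

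Targets of canonical Wnt signalling also lay mostly below WT, without any call. Of 15 tested members, 12 had values below WT and 3 above, 1 had an unadjusted p under 0.05, and the median was -0.187. Over the settings the median ran from -0.287 without Dmrt3 KO replicate 5 to -0.126 with the length slope as a covariate. It was -0.127 without WT replicate 4. Axin2, a feedback inhibitor and standard readout of the pathway, stood at 89.1, 64.1, 60.6 and 111 CPM in WT and at 63.1, 52.6, 73.4, 72.9 and 61.0 CPM in Dmrt3 KO, with overlap (log2 -0.33, interval -0.90 to 0.24). Lef1, the transcription factor of the pathway needed for the hippocampus, had -0.31 (-0.85 to 0.24). Znrf3, a ubiquitin ligase that removes Wnt receptors, had -0.56 (-1.02 to -0.11, adjusted p = 0.65), and Nkd1, another feedback inhibitor, 0.04 (-0.30 to 0.37).

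Of the choroid plexus epithelium, 9 genes were tested and edgeR called 0 of them. Values were above WT for 4 and below for 5, the median was -0.201 (-0.396 without Dmrt3 KO replicate 2 and -0.0556 without WT replicate 1), and 2 had an interval within 2-fold. Ttr, the thyroid hormone carrier that is the defining product of this epithelium, stood at 235, 50.1, 202 and 123 CPM in WT and at 207, 314, 93.9, 98.5 and 61.6 CPM in Dmrt3 KO. The libraries of each genotype spread widely, and the log2 difference of 0.02 had an interval of -1.4 to 1.45. Foxj1, the regulator of motile cilia, had 0.15 (-0.28 to 0.58). Slc4a5, a bicarbonate transporter, had 3.46, 0.427, 2.16 and 2.40 CPM in WT and between 0.172 and 0.619 CPM in Dmrt3 KO. WT replicate 2 lay among the KO libraries, and the log2 value of -2.16 (-3.13 to -1.18) was called by DESeq2 (adjusted p = 0.0193) and not by edgeR (adjusted p = 0.181). Without WT replicate 2 edgeR called it too (-2.48, adjusted p = 0.0191).

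Cajal-Retzius neurons arise from the hem and other borders of the pallium and secrete Reln, the guide of cortical layering. Of 12 genes of these neurons 0 were called, 8 had values below and 4 above WT, and the median was -0.125. It was -0.00369 without Dmrt3 KO replicate 1 and -0.0257 without WT replicate 4, with 6 of 12 below in each, and 0.0275 with the length slope. Trp73, a member of the p53 family that marks the hem-derived cells, stood at 50.3, 28.0, 34.4 and 50.6 CPM in WT and at 30.2, 24.8, 31.0, 27.5 and 24.4 CPM in Dmrt3 KO. WT replicate 2 lay within the KO range (log2 -0.57, interval -0.95 to -0.18, adjusted p = 0.466). Reln had -0.61 (-1.13 to -0.08), whereas Calb2 and Barhl2 had values above WT, 0.72 (0.11 to 1.33) and 0.66 (0.14 to 1.18), with adjusted p of 0.65 and 0.636. In tissue libraries like these, fewer cells of a type and less RNA per cell cannot be told apart.

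Most pallial progenitor genes had narrow intervals around WT. Of 16 tested, 0 were called, 11 had values above and 5 below WT, and the median was 0.129, which was 0.0341 without WT replicate 1 and 0.0583 without WT replicate 4. For 15 of the 16 (93.8%) the interval lay within 2-fold. Sox2, the common neural progenitor factor, stood at 342, 437, 389 and 352 CPM in WT and at 317, 394, 428, 398 and 387 CPM in Dmrt3 KO (log2 0.02, interval -0.21 to 0.25). Neurog2, the proneural factor that starts glutamatergic differentiation, stood at 290, 167, 246 and 248 CPM in WT and at 302, 265, 308, 311 and 233 CPM in Dmrt3 KO. Its lowest value was that of WT replicate 2 and the groups overlapped (log2 0.26, -0.08 to 0.59). Fezf2, a zinc-finger factor of dorsal progenitors and deep-layer neurons, had 122, 114, 119 and 97.9 CPM in WT and 113, 84.2, 99.6, 93.1 and 82.7 CPM in Dmrt3 KO (log2 -0.26, -0.53 to 0.01). Fabp7, a lipid-binding protein of radial glia, had 0.61 (-0.08 to 1.29), the member whose interval reached beyond 2-fold.

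Of 14 genes of the glutamatergic lineage 0 were called, with 9 values above and 5 below WT. The median of 0.0725 became -0.13 without WT replicate 2, -0.0023 without Dmrt3 KO replicate 4 and 0.156 without WT replicate 1. Eomes, which marks intermediate progenitors, stood at 255, 142, 188 and 213 CPM in WT and at 209, 203, 227, 274 and 173 CPM in Dmrt3 KO (log2 0.12, interval -0.23 to 0.47). Tbr1, its relative in early cortical neurons, had -0.05 (-0.44 to 0.35), and Nhlh1, a helix-loop-helix gene of newborn neurons, 0.07 (-0.23 to 0.38). Neurod6, a later gene of the same family, stood at 177, 25.5, 98.5 and 97.1 CPM in WT and at 139, 148, 110, 149 and 97.0 CPM in Dmrt3 KO. The low WT value is that of replicate 2, and the interval was wide (log2 0.37, -0.70 to 1.44). Sox5, which restrains deep-layer subtypes, had -0.48 (-0.91 to -0.05, adjusted p = 0.65).

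Hippocampal and medial pallial regulators had values below WT for 10 of 12 tested, with a median of -0.22 and 0 called. The median was -0.0808 with 8 of 12 below without WT replicate 4, -0.0821 with the length slope, -0.135 without WT replicate 1 and -0.334 without WT replicate 2. For 10 (83.3%) the interval lay within 2-fold. Zic1, a zinc-finger factor of the medial telencephalon, stood at 247, 286, 223 and 319 CPM in WT and at 231, 234, 282, 239 and 362 CPM in Dmrt3 KO, a log2 difference of 0.01 (-0.30 to 0.31). Nfix, a nuclear factor I gene of hippocampal progenitors, had the lowest value, -0.51 (-1.02 to -0.01), and Lhx5, a LIM homeobox gene of the medial wall, the highest, 0.44 (-0.02 to 0.91). All 11 neocortical area factors had intervals within 2-fold and 0 were called, with a median of 0.124 that was -0.00145 without WT replicate 3. Among them Lmo4, a LIM-only regulator, had 0.33 (0.00 to 0.65).

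No gene of the ventral telencephalon was called, as for nearly all tested genes. Of 20 genes of the lateral ganglionic eminence and GABAergic lineage, 0 were called, 15 had values above and 5 below WT, and the median was 0.083, or 0.0149 with 9 below without Dmrt3 KO replicate 2. The interval lay within 2-fold for 16. Dlx2, a homeobox gene of GABAergic fate, had 159, 151, 215 and 149 CPM in WT and 138, 241, 214, 182 and 160 CPM in Dmrt3 KO (log2 0.15, -0.21 to 0.52). The 6 tested genes of the medial ganglionic eminence all had values above WT, with a median of 0.361 and 0 called. Without Dmrt3 KO replicate 2 the median was 0.0101 with 3 of the 6 below WT, and without WT replicates 3 or 4 it was 0.62 or 0.228. Their summed level was 99.1 to 209 CPM in WT, 88.6 to 173 CPM in 4 of the KO libraries and 416 CPM in Dmrt3 KO replicate 2. Lhx6, which marks interneurons born there, had 39.9, 23.2, 53.7 and 28.0 CPM in WT and 33.3, 102, 48.2, 30.6 and 29.1 CPM in Dmrt3 KO. Its log2 value of 0.43 turned to -0.035 without that replicate. Of the 7 antihem genes, which mark the ventral pallial signalling border, 0 were called and the median was -0.135, which turned to 0.144 without WT replicate 4 and to 0.157 with the length slope.

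Signalling pathways of the forebrain were bounded to different degrees. Of 11 rostral Fgf ligands and targets 0 were called, with a median of 0.0364 and 9 (81.8%) within 2-fold. That median ran from -0.122 without Dmrt3 KO replicate 5 to 0.296 without WT replicate 2. The Fgf targets Etv5 and Spry2 had 0.12 (-0.26 to 0.51) and 0.05 (-0.38 to 0.48), and Fgf15, a forebrain ligand, 0.37 (-0.17 to 0.91). Of 13 Notch pathway genes 0 were called, the median was -0.0433 (0.0138 without Dmrt3 KO replicate 2, -0.107 without WT replicate 3) and 11 (84.6%) lay within 2-fold. Lfng, a glycosyltransferase that modifies Notch, stood at 71.7, 71.1, 69.6 and 62.2 CPM in WT and at 71.1, 60.4, 65.8, 73.0 and 74.96 CPM in Dmrt3 KO (log2 0.01, -0.24 to 0.25). Hey1, a target of the pathway, had -0.18 (-0.40 to 0.05), whereas the long receptor gene Notch2 had -0.58 (-1.04 to -0.12). Of 11 Hedgehog pathway genes edgeR called 0 and DESeq2 1 lower, Ptch1, with a median of -0.301, which was -0.166 without WT replicate 4, -0.191 without Dmrt3 KO replicate 2 and -0.127 with the length slope. The co-receptors Boc and Cdon had -0.33 (-0.71 to 0.05) and -0.45 (-0.93 to 0.03).

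Cell cycle genes were bounded close to WT. All 20 had an interval within 2-fold, 15 of them within 1.5-fold, 0 were called, and the median was -0.0186, from -0.0743 without WT replicate 4 to 0.0844 without WT replicate 2. Mcm6, a subunit of the replicative helicase, stood at 297, 328, 294 and 293 CPM in WT and at 280, 278, 279, 300 and 299 CPM in Dmrt3 KO (log2 -0.08, interval -0.30 to 0.14). Ccna2, the cyclin of S and G2 phase, had -0.11 (-0.32 to 0.10). The lowest value was that of Mki67, a long gene of cycling cells, at -0.46 (-0.85 to -0.08). Of 11 p53 targets 0 were called, with a median of -0.176, or -0.0597 without WT replicate 4. Mdm2, the ubiquitin ligase that holds p53 down, had -0.11 (-0.39 to 0.17) and Zmat3, an RNA-binding target, -0.21 (-0.47 to 0.06). The 7 immediate early genes tested, which respond to handling, all lay within 2-fold, for example Jun with 0.01 (-0.27 to 0.29). Among 15 genes that nearly every cell uses, 12 lay within 2-fold and the median was 0.134, from 0.031 without WT replicate 4 to 0.388 without WT replicate 2. The respiratory subunit Sdha stood at 275, 290, 268 and 254 CPM in WT and at 284, 274, 280, 287 and 281 CPM in Dmrt3 KO (log2 0.05, -0.11 to 0.21).

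In each list of markers of other tissues edgeR called 0 genes. Diencephalon markers had values above WT for 11 of 12 tested genes and a median of 0.577, which was 0.36 without Dmrt3 KO replicate 2. Their summed level was 116 to 195 CPM in WT, 205 CPM in Dmrt3 KO replicate 3 and 244 CPM in Dmrt3 KO replicate 2. In that replicate Irx1, an Iroquois gene of the thalamus and midbrain, stood at 6.32 CPM, against 0.377 to 0.833 CPM in the other KO libraries and 0.0672 to 0.955 CPM in WT. Irx2 there stood at 5.13 CPM and Nkx2-2, a ventral homeobox gene, at 3.31 CPM. Microglia markers had a median of 0.538 (0.356 without WT replicate 4, 0.869 without WT replicate 2) with 8 of 10 above WT, and their summed level was 68.5 to 81.6 CPM in WT and 78.2 to 130 CPM in Dmrt3 KO. The complement gene C1qb and the signalling adaptor Tyrobp had log2 values of 0.72 (0.05 to 1.4) and 0.81 (0.06 to 1.56), whereas Csf1r, the defining receptor, had 0.14 (-0.34 to 0.62). Endothelial markers had a median of -0.0917 (8 of 10 within 2-fold), or 0.0182 without Dmrt3 KO replicate 2, and the vessel receptor Tie1 had an interval of -0.46 to 0.46. For mesenchyme, 0 of 12 genes lay within 2-fold, so these data bound no change there: Col3a1, a fibrillar collagen, had -0.22 (-1.91 to 1.46). Erythroid and surface ectoderm markers had medians of -0.159 and -0.543, which became 0.409 and -0.0331 without WT replicate 2. Eye markers had a median of -0.0743, with a range of -0.554 to 0.0907 over the settings. Among the eye and pigment genes Dct, a melanin enzyme, stood at 17.6, 12.8, 13.7 and 11.8 CPM in WT and at 8.94, 10.3, 7.70, 6.52 and 9.83 CPM in Dmrt3 KO, with no overlap (log2 -0.69, -1.22 to -0.16, adjusted p = 0.61).

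Lower values were more frequent in some gene classes than among all tested genes. Protein-coding genes with more than 6000 bases of exon made up 28.4% of tested genes (4617). They supplied 51.2% of the 911 genes with an unadjusted p under 0.05 and a lower value. Of the 53 genes that DESeq2 called lower they were 16 (30.2%), near their share of tested genes. The median log2 fold change of all 4617 was -0.202, with 3674 below WT. Shorter protein-coding genes (9664) had a median of 0.0991 and supplied 217 of the 252 genes with a higher value and an unadjusted p under 0.05 (86.1%). Processed pseudogenes, reverse-transcribed gene copies, made up 4.02% of tested genes (653), 22.8% of the 911 and 25 of the 53 (47.2%). Their median was -0.545, with 526 below WT. Reads of a pseudogene can come from its parent gene, and these values are uncertain. The number of processed pseudogenes with at least 1 count was 2209, 2142, 2196 and 2317 in WT and 1777, 1899, 1954, 1955 and 1920 in Dmrt3 KO, so the groups did not overlap, although their share of all counts did, at 0.13% to 0.2487% in WT and 0.1336% to 0.1768% in Dmrt3 KO. The medians of both classes moved with the libraries and the model. For long genes the median was -0.0805 without WT replicate 4, -0.288 without WT replicate 2, and -0.0649 when the length slope was a covariate. For pseudogenes it was -0.717, -0.28 and -0.629 in the same order. Among genes with an unadjusted p under 0.05 and a lower value, long genes were 77 of 425 without WT replicate 4. That is a smaller share than their 28.4% of tested genes. Without WT replicate 2 long genes were 1178 of 1831. Pseudogenes were 253 of the 425 and 138 of the 1831. Among less scarce pseudogenes the median was closer to WT. The 88 whose mean log2 CPM reached 1 or more had a median of -0.0405, 39 above and 49 below WT. Of these, 14 had a lower and 2 a higher value at an unadjusted p under 0.05. In 8 all KO libraries lay below all WT libraries, as for 1.67% of all genes. With the filter of a CPM of at least 1 in 4 libraries, 280 pseudogenes remained, with a median of -0.36 and 210 below WT. A scarce gene can pass this filter or the main one through the 4 WT libraries alone, which would favour lower values in Dmrt3 KO. The part of the filters in these values was not tested.

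The long genes with the lowest p were spread widely over the WT libraries. Hipk2, a nuclear kinase with 8836 bases of exon, stood at 39.1, 20.2, 47.8 and 82.0 CPM in WT and at 16.5, 18.2, 12.3, 12.4 and 12.4 CPM in Dmrt3 KO. The KO libraries were alike and the WT libraries spread over 4-fold (log2 -1.72, interval -2.59 to -0.85, adjusted p = 0.223 with edgeR and 0.0219 with DESeq2). Ptch1, the Hedgehog receptor that is also a target of the pathway, stood at 10.8, 3.52, 9.82 and 35.5 CPM in WT and at 3.55, 2.39, 2.86, 2.85 and 1.81 CPM in Dmrt3 KO. Again WT replicate 4 was highest and WT replicate 2 reached the KO range (log2 -2.47, -3.96 to -0.99, adjusted p = 0.351, and 0.0445 with DESeq2). Notch1, a receptor of lateral inhibition, showed the same order in WT, 156, 48.5, 130 and 270 CPM, against 67.6, 43.8, 81.5, 103 and 59.1 CPM in Dmrt3 KO (log2 -1.09, -2.06 to -0.12). The length slope of each WT library, 0.0964, -0.196, -0.063 and 0.243, had the order of Ptch1 and Notch1. Hipk2 had another order, with WT replicate 3 above WT replicate 1. Among the KO libraries Ptch1 was highest in replicate 1, which had the lowest slope (-0.118). Notch1 was highest there in replicate 4, which had the highest slope (0.0508). Ston2, Xylt1, Cbl, Arid5b, Srcap, Mgat5, Nr2c2, Atad2b and the axon guidance receptor Dcc had log2 values from -2.79 to -1.60 and were called lower by DESeq2 and not by edgeR. With other settings edgeR called 3 of them: Ston2 with the length slope (adjusted p = 0.0101) and without WT replicate 2 (0.0428), and Arid5b (0.0251) and Mgat5 (0.0276) with the length slope. The part of gene length in these values was not tested beyond the fit with the slope as a covariate, under which edgeR called 88 genes lower. Of these 88, 46 were processed pseudogenes, 26 long protein-coding genes and 8 shorter protein-coding genes.

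Fam129a and Prelp were lower with tighter groups. Fam129a (ENSMUSG00000026483, chromosome 1, 151571186 to 151721939), a stress-induced regulator of translation, stood at 7.39, 3.10, 4.78 and 6.51 CPM in WT and at 1.31, 1.77, 1.43, 1.54 and 1.55 CPM in Dmrt3 KO. All KO libraries were below all WT libraries (log2 -1.84, interval -2.56 to -1.12), with adjusted p = 0.127 by edgeR and 0.000343 by DESeq2. Without WT replicate 2 edgeR called it too (adjusted p = 0.0428), and in the fit with the length slope (0.017). Prelp, a small extracellular leucine-rich proteoglycan, stood at 8.03, 4.38, 5.37 and 5.59 CPM in WT and at 3.46, 3.05, 3.21, 3.15 and 3.75 CPM in Dmrt3 KO, also without overlap (log2 -0.81, -1.18 to -0.45, adjusted p = 0.177 by edgeR and 0.00801 by DESeq2). With the length slope edgeR called it (-0.796, adjusted p = 0.0394).

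**Figure D4:**
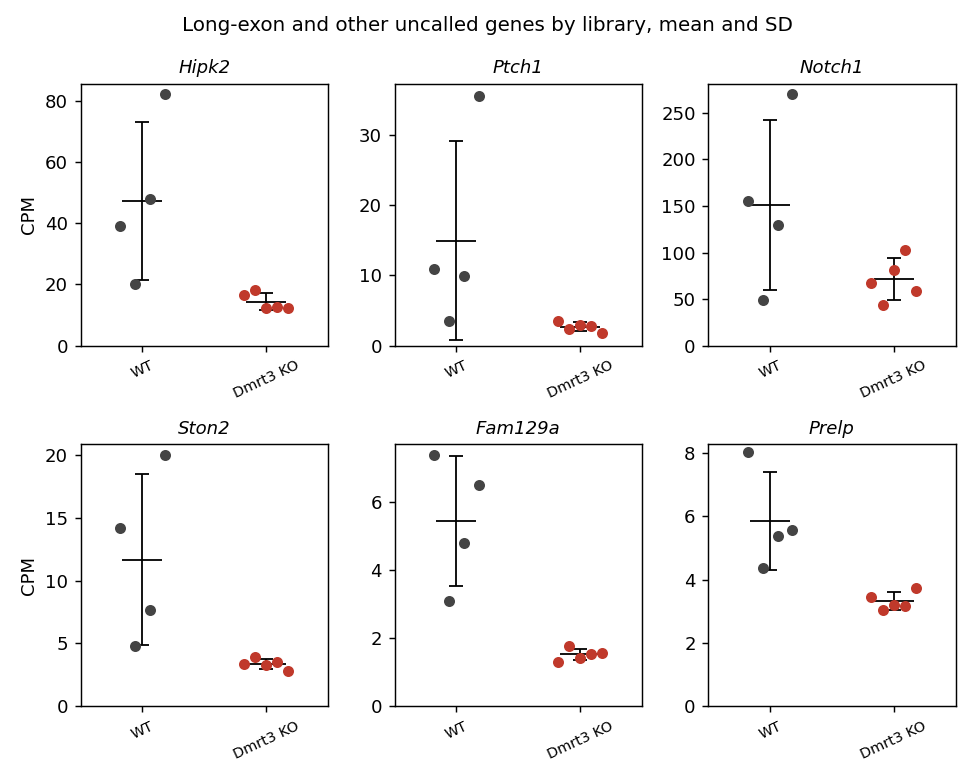
CPM (y axes, linear from 0) of 6 genes with low values in Dmrt3 KO that edgeR did not call, in the 4 WT and 5 Dmrt3 KO libraries (x axis); points are libraries, and bars give the mean and SD. Hipk2, Ptch1 and Notch1 spread widely in WT, with 82.0, 35.5 and 270 CPM in WT replicate 4, while the KO libraries of Fam129a and Prelp stay close together below WT.

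Above WT, the values with the lowest p after Dmrt1 were small and uncalled. Cpa4, a secreted carboxypeptidase, stood at 11.3, 14.0, 13.8 and 8.86 CPM in WT and at 17.4, 16.8, 17.8, 17.9 and 18.4 CPM in Dmrt3 KO. The KO libraries were nearly equal and all above WT, as for 0.696% of all genes (log2 0.56, interval 0.24 to 0.88, adjusted p = 0.325). Prr15, a proline-rich protein, stood at 16.0, 10.7, 16.5 and 12.8 CPM in WT and at 22.3, 19.1, 19.1, 20.3 and 19.9 CPM in Dmrt3 KO, also without overlap (log2 0.52, 0.19 to 0.86, adjusted p = 0.375). Glrx, Wscd1 and Hs3st1 likewise had all KO libraries above WT, with log2 values of 0.55, 0.36 and 0.58. Rapsn, Nrn1 and Kcnn1 had 0.92, 0.49 and 0.44 with overlapping libraries. Mab21l2, a gene of eye and midbrain development, stood at 2.02, 2.51, 1.86 and 1.68 CPM in WT and at 4.16, 12.46, 7.86, 2.54 and 2.97 CPM in Dmrt3 KO (log2 1.58, 0.63 to 2.52, adjusted p = 0.351). Its groups did not overlap, but the lowest KO and the highest WT library nearly met. Its highest level was that of Dmrt3 KO replicate 2, the KO library that stood apart for Irx1, Irx2 and Nkx2-2.

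Whether the weak effect of losing Dmrt3 differs from that of losing Dmrt5 was tested directly between those genotypes, without the WT libraries in the contrast. In Dmrt5 KO against Dmrt3 KO, edgeR called 10 genes higher (0.0616%) and 27 lower (0.166%), and DESeq2 41 (0.253%) and 103 (0.635%). Dmrt3 and Dmrta2 were among them by design. Lhx2 was lower in Dmrt5 KO than in Dmrt3 KO by a log2 difference of -0.76 (adjusted p = 0.0079), Lmx1a by -1.37 (0.019), Fezf2 by -0.66 (0.037) and Foxj1 by -1.32 (0.0098). Six3 and Dlx2 were higher in Dmrt5 KO by 0.87 (0.0023) and 0.93 (0.031). Prr15 was lower in Dmrt5 KO by -2.13 (adjusted p = 2.8e-06), and Dmrt1 by -2.08 (3.2e-05). For Emx1 and Wnt3a the differences of -1.20 and -1.13 were not called (adjusted p 0.061 and 0.84).

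The effect of losing Dmrt3 was then compared with and without Dmrt5, since the contrasts Dmrt3 KO minus WT and double KO minus Dmrt5 KO share no library. In double KO against Dmrt5 KO, edgeR called 2 genes higher (0.0123%) and 52 lower (0.320%). The test of the difference itself called 23 genes (0.142%) with a lower signed log2 fold change where Dmrt5 was missing. It called 0 (0%) with a higher one. At an unadjusted p under 0.05 these were 297 (1.83%) and 1200 (7.39%), and DESeq2 called 61 (0.376%) and 66 (0.407%). Emx1 had log2 values of 0.14 with Dmrt5 and -3.11 without it, a difference of -3.26 (adjusted p = 0.00033). Neurog2 had 0.26 and -1.79, and Eomes 0.12 and -1.75, with differences of -2.05 (0.00033) and -1.87 (0.0011). Nhlh1 had 0.07 and -1.99 (difference -2.06, adjusted p = 0.00023), and Slc17a7, the vesicular glutamate transporter, 0.07 and -2.69 (-2.76, 0.00046). Neurod2, Neurod6 and Neurod1 had 0.16, 0.37 and 0.11 with Dmrt5 and -3.60, -4.79 and -1.84 without it. For these genes and for the AP-2 factor Tfap2c (0.17 and -1.58) the difference was called in all 18 settings tried. None of these settings left out a Dmrt5 KO or double KO library, so the dependence on single libraries of those genotypes was not tested.

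**Figure D5:**
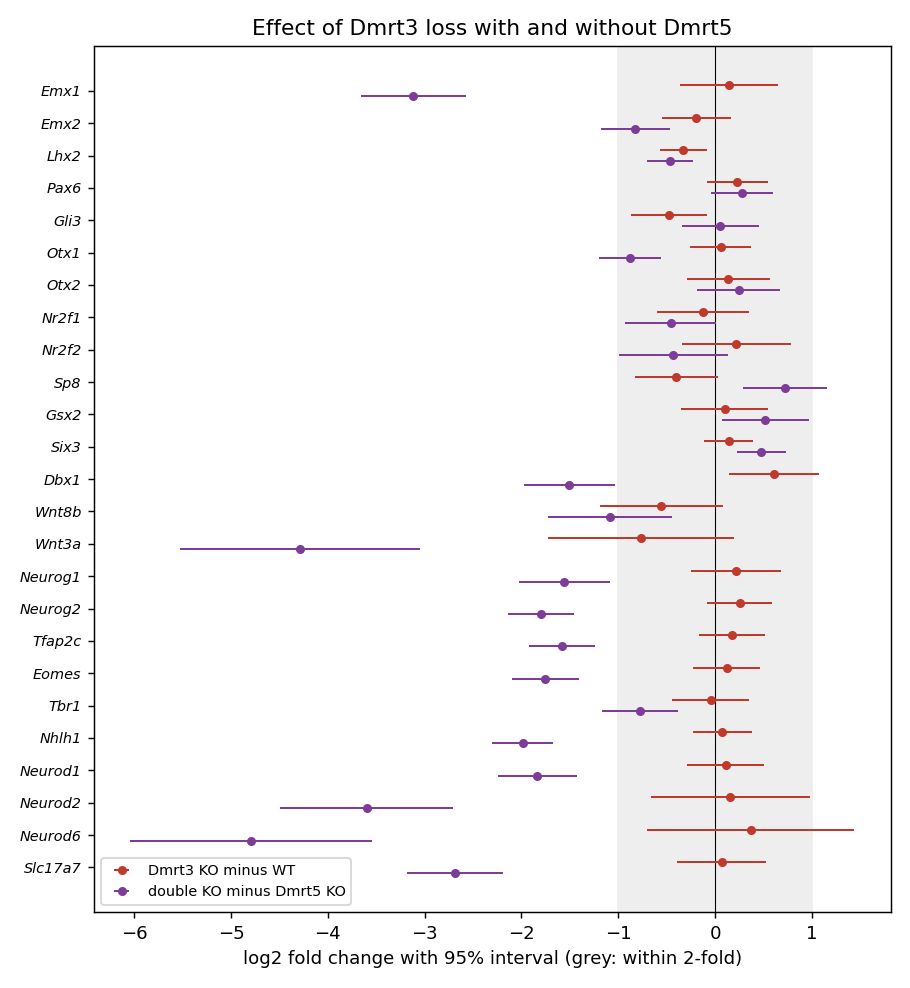
Log2 fold change with 95% interval (x axis) for 25 patterning and lineage genes (y axis) after loss of Dmrt3 with Dmrt5 present (Dmrt3 KO minus WT, red) and absent (double KO minus Dmrt5 KO, purple); the grey band marks a 2-fold change. The red intervals lie inside or near the band, as for Eomes (0.12) and Emx1 (0.14), while the purple values of those genes are -1.75 and -3.11.

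Dmrt1, which rose in Dmrt3 KO, was also among the 23 genes. In double KO against Dmrt5 KO its log2 fold change was 0.24 (interval -0.17 to 0.64), with raw counts of 49, 62, 72 and 84 in Dmrt5 KO and 50, 55, 88, 82 and 75 in the double KO. The difference from the 1.73 seen with Dmrt5 present was -1.50 (adjusted p = 0.027), and it was called in 11 of 18 settings. Neurog1, which acts beside Neurog2, had 0.21 and -1.56, a difference of -1.77 called in 12 of 18 settings. Genes near WT in Dmrt3 KO did not all respond without Dmrt5: Pax6 had 0.23 and 0.28, and Sox2 0.02 and 0.00. Of the 24 promoter windows of the 19 interaction genes found in the RefSeq table, 1 held the core ACANTGT (4.17%), for Sv2b. Of the 22 windows of 14 patterning regulators 1 did (4.55%), for Wnt8b. Over the 15048 windows of tested genes the share was 4.1%.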

How the data were processed

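RNA was sequenced from E12.5 cortex with an unstranded TruSeq kit, per the labels' protocols. The authors deposited raw read counts per gene; the submitters' processing notes name STAR 2.3.0e, featureCounts 1.4.6-p1, DESeq2 1.8.2 and mm10. Of 38355 listed genes, 36602 matched GENCODE M21, and 0.397% of counts were unmatched. Without strand, reads of overlapping genes cannot be told apart.

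The deposited counts were tested with edgeR 4.0.16 (R 4.3.3): TMM scaling, filterByExpr, quasi-likelihood test, 1 mean per genotype over all 18 libraries, and Benjamini-Hochberg adjustment over 16236 genes at 0.05. Intervals are 95% on the log2 scale. The interaction is double KO minus Dmrt5 KO, less Dmrt3 KO minus WT. Alternatives were DESeq2 1.42.0, limma-voom 3.58.1, other scaling, filters and covariates, and leaving out each WT or Dmrt3 KO library in turn. No Dmrt5 KO or double KO library was left out. The scripts were tested on simulated data.

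Named genes were the Dmrt family and patterning lists, called genes, those with the lowest p or narrowest interval per list, up to 10 per direction with the lowest edgeR p or called by DESeq2, and neighbours within 500 kb. Genes named for the other contrasts, and single values that describe tissue or libraries, were chosen after their values were seen. Members and lists were chosen with earlier results of these data known. List medians under each setting were added after seeing the data. Some results are not reported here.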

Additional observations from a re-analysis of the deposited data

Results flagged for a closer look

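Within groups of 4 or 5 libraries, 242 sets of values of named genes were searched for a library far from the others, and 14 were found, where chance gives about 1 in 20 groups. Of these, 7 were Dmrt3 KO replicate 2. There Nkx2-2 stood at 3.31 CPM (nearest library 0.774), Irx1 at 6.32 (0.833), Irx2 at 5.13 (1.01), Lhx6 at 102 (48.2) and Dlx5 at 102 CPM (68.2). Tie1 stood at 28.2 CPM (45.2) and Arid5b at 1.24 CPM (0.833) in the same library. Emx1 stood at 236 CPM in Dmrt3 KO replicate 1 (164), and Nkd1 at 61.9 CPM in replicate 4 (78.5). In WT, replicate 4 was apart for Gli3 (256 CPM, nearest 181), Arid5b (11.4, nearest 3.49) and Wscd1 (92.2, nearest 109), replicate 3 for Dlx2 (215, nearest 159) and replicate 2 for Mcm6 (328, nearest 297).

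The response to loss of Dmrt3 differed with and without Dmrt5 for 19 named genes by the edgeR interaction test. In all of them the log2 fold change was lower, on its signed scale, without Dmrt5. The log2 differences for transcription factors were -3.26 for Emx1, -2.11 for Dbx1, -1.77 for Neurog1, -2.05 for Neurog2, -1.76 for Tfap2c, -3.21 for Tfap2e, -1.87 for Eomes, -2.06 for Nhlh1, -1.95 for Neurod1, -3.76 for Neurod2, -5.16 for Neurod6 and -1.5 for Dmrt1. Among the other genes they were -2.76 for Slc17a7, -2.94 for the synaptic vesicle gene Sv2b, -1.57 for Nrn1, -1.51 for Prr15, -1.27 for Tmem163, -3.32 for the tight junction gene Cldn1 and -4.05 for the glucagon gene Gcg. The call held in 13 of the 18 settings for Sv2b (highest adjusted p 0.0972) and for Cldn1 (0.083), in 12 for Neurog1 and in 11 for Dmrt1. Gcg was too scarce to pass the filter of a CPM of at least 1 in 4 libraries, and its call held in the other 17 settings.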

How the results depend on the processing

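Dmrt1 was the 1 gene called higher in every setting, with the same direction throughout. The count of genes lower in Dmrt3 KO, 1 with edgeR, was 53 with DESeq2, 88 with the length slope as a covariate, 2 with only WT and Dmrt3 KO fitted, and 1 to 5 when 1 library was left out (5 without WT replicate 2, 3 without WT replicate 4). With the replicate number as a block it was 2, with 1278 higher and 1845 lower values at an unadjusted p under 0.05. Same-numbered WT and Dmrt3 KO libraries correlated at -0.0925, 0.276, -0.205 and 0.549, and pairs of unlike number at -0.62 to 0.539. What libraries of the same number share was not tested. Intervals within 1.5-fold were found for 6121 genes. Libraries all above WT were found for 170 genes with no filter and 123 to 415 with 1 library left out, and all below for 462 with no filter, 171 with a CPM filter and 288 to 1092 with 1 left out, both highest without WT replicate 2. A higher log2 fold change after Dmrt3 loss without Dmrt5 was called for 66 genes by DESeq2 and 1 with the length slope. That count was 0 to 7 with 1 WT or Dmrt3 KO library left out, as in all such fits here. A lower log2 fold change was called for 61 by DESeq2 and 15 to 26 with 1 left out (15 without Dmrt3 KO replicate 3). Dmrt5 KO exceeded Dmrt3 KO for 41 genes by DESeq2, 39 with the length slope and 3 to 13 with 1 left out, and was lower for 103, 82 and 10 to 46. The cause of these shifts was not tested. Of the values of 121 named genes under alternatives, 2202 kept direction and side of the threshold and 23 passed it, all lower in Dmrt3 KO. The log2 value changed sign in 63 cases, of 21 genes and with 0 of them called, and the cause was not tested. With the length slope these were Emx1 (-0.0352), Nr2f1 (0.00807), Nkd1 (-0.0283), Ttr (-0.128), Sox2 (-0.00917), Tbr1 (0.112), Lfng (-0.0242) and Tie1 (0.0474). With sex as a covariate they were Ttr (-0.0905), Zic1 (-0.0126), Lfng (-0.00658) and Jun (-0.00275), and with limma-voom Ttr (-0.0154) and Zic1 (-0.00152). Zic1 was at -0.00333 with no filter and at -0.0515 with the replicate block. Tie1 was at 0.0017 with RLE scaling, 0.0116 with the CPM filter, 0.00169 with DESeq2 and 0.0396 with the digit of the file number as a covariate. With 1 library left out, the log2 values ran from -0.704 to 0.0138 for Dmrtc2, from -0.00884 to 0.233 for Emx1, from -0.0695 to 0.29 for Gsx2, from -0.24 to 0.0365 for Nr2f1, from -0.0137 to 0.106 for Nkd1, from -0.403 to 0.305 for Ttr and from -0.0365 to 0.094 for Sox2. They ran from -0.00799 to 0.255 for Eomes, from -0.172 to 0.0673 for Tbr1, from -0.0101 to 0.153 for Nhlh1, from -0.147 to 0.525 for Neurod2, from -0.125 to 0.306 for Slc17a7, from -0.122 to 0.0939 for Zic1 and from -0.035 to 0.664 for Lhx6. They ran from -0.0199 to 0.231 for Etv5, from -0.0747 to 0.138 for Spry2, from -0.0413 to 0.0531 for Lfng, from -0.0468 to 0.0576 for Jun, from -0.069 to 0.0402 for Tbp, from -0.0748 to 0.125 for Tie1 and from -0.598 to 0.092 for Col3a1. Low counts limit precision.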
